A study of Mus musculus with 23 samples.

Results

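The mouse genome names a large share of its zinc finger genes as Zfp followed by a number. Among the gene symbols of the Illumina Mouse WG-6 v2.0 BeadChip, 217 were exactly of that form once Zfp42 (Rex1) was left out. A gene entered by its brightest probe if that probe was detected, at a detection p under 0.01, on 5 or more of 23 arrays, and 169 of the 217 genes met this rule. The remaining 48 were detected on fewer arrays, 4 of them on none, and are not described. At the edge of the rule, Zfp316, Zfp59, Zfp781, Zfp808 and 1 further gene were detected on 4 arrays, and 6 genes, among them Zfp11, Zfp202, Zfp619 and Zfp72, on 5. By the same rule 9226 of 11494 named genes of the chip were retained.

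The arrays measured total RNA from pluripotent mouse lines on a C57Bl6/CBA/129 background that were null for Blimp1 or heterozygous for its mutation (het, +/-), and no pluripotent line was wild type. A single array held wild type mouse embryonic fibroblasts (MEFs), labelled with the same background, while MEFs of the study were made from MF1 mice. Reverted embryonic stem cells (rESCs) came from null lines J2.3, BL2 and BL6 and het lines BL3 and BL7, and had been obtained from epiblast stem cells (epiSCs) moved to LIF and fetal calf serum on feeders. The epiSCs were null lines BL2 and BL6 and het lines BL3, BL4 and BL7, grown with activin A and bFGF on feeder fibroblasts. Embryonic stem cells (ESCs), null lines JAG1, JAG2 and B12 and het lines PAN1, PUM3 and CHE4, were grown in 2i/LIF, a medium with the MEK inhibitor PD0325901 and the GSK3 inhibitor CHIR99021, or in serum with LIF. Each line gave 1 array per state, so n counts lines, and a line is 1 derivation. The questions were how the cells differ between culture states and whether loss of Blimp1 changes them, and Blimp1 (Prdm1) itself was not analysed here.

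Zinc finger proteins of this group mostly carry C2H2 fingers, small folds that hold a zinc ion and read short stretches of DNA or RNA. Many of them, in mouse as in other mammals, also carry a KRAB domain, which recruits the corepressor Trim28 and the histone methyltransferase Setdb1 and so places repressive chromatin on retroelements and imprinted regions. The KRAB genes lie in clusters of recent duplicates, and embryonic stem cells are a cell type in which this silencing has been studied most. Others of the group have no KRAB domain and act on messenger RNA, ribosomes, ubiquitin or development. Protein sequences were not used here, so that KRAB members were not counted.

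The labelled states were checked first. Levels are log2 intensities after background correction and quantile normalization over the 23 arrays, and the faintest detected probes stood at 4.93 to 5.28. Of 6 naive markers all were detected on every rESC, 2i and serum array, whereas epiSC arrays detected 2 to 6 of them. The BL6 epiSC array stood apart. The summed level of its naive markers was 11.54, against 7.81 to 9.09 on the other epiSC arrays and 12.14 to 13.31 in rESCs, although all 6 epiSC markers were detected on it. Core pluripotency markers were detected on 0 of 3 probes in MEFs. Of 24 fibroblast markers 23 were measured, and their summed level was 16.65 in MEFs, 12.3 to 13.99 in rESCs, 12.1 to 12.43 in epiSCs, 10.6 to 11.04 in 2i and 12.7 to 13.35 in serum. Fibroblast markers were detected in numbers of 3 to 8 on the 2i arrays and 14 to 19 on the other pluripotent arrays, and their part in the differences below was not tested except where a value is given. In such bulk samples fewer cells of a type and less RNA per cell cannot be told apart.

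The numbered Zfp genes were dim but widespread. The median of the 169 levels on an array was 5.97 to 6.12 in rESCs, 5.98 to 6.1 in epiSCs, 6.03 to 6.27 in 2i and 5.77 to 6.08 in serum, where the median of all 9226 genes was 6.75 to 6.84. Detected were 119 of the 169 in MEFs, 124 to 148 in rESCs, 133 to 150 in epiSCs, 128 to 144 in 2i and 118 to 135 in serum. On all 23 arrays 77 genes were detected, and 37 were detected on fewer than 12. The brightest on average were Zfp219, Zfp277, Zfp330, Zfp639 and Zfp710, with state medians of 8.07 (Zfp710 in epiSCs) to 9.94 (Zfp219 in epiSCs), and the dimmest were Zfp768, Zfp758, Zfp202, Zfp940 and Zfp11, with means of 4.67 to 4.81 over the 22 pluripotent arrays. Probes differ in brightness for the same amount of RNA, so these levels do not rank the genes by abundance.

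The positions of the genes in the genome were also read. All 169 matched a RefSeq gene on GRCm38.p6, and 40 of them (23.7%) lay on chromosome 7, 16 on chromosome 17, 14 on chromosome 13 and 12 on chromosome 8. With gaps of up to 500000 bases between neighbours, 67 of the 169 fell into 16 runs of 3 or more. The same counts were not made for other genes, so whether these shares are unusual was not tested. The longest runs held 7 genes each, Zfp84, Zfp30, Zfp790, Zfp940, Zfp27, Zfp568 and Zfp82 at chr7:29768552-30072823, and Zfp457, Zfp429, Zfp459, Zfp58, Zfp87, Zfp748 and Zfp738 at chr13:67288137-67683512. A run on chromosome 4 (chr4:147553277-147849126) held Zfp985, Zfp979 and Zfp933. Probe sequences were not used here, and whether a probe of a recent duplicate also binds its neighbour's transcript was not tested, so values of genes in these runs are uncertain in that respect.

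Promoters, taken as the 300 bases from 250 before to 50 after a RefSeq start (GRCm38.p6), matched 135 of the 169 genes. The ETS motif CCGGAAG, read on both strands as were all motifs, lay in 22.2% of them, against 12.9% of 17492 protein-coding genes. The NRF1 motif lay in 4.44%, against 1.47%. The cyclic AMP response element (CRE), searched as TGACGTCA, lay in 5.93%, against 2.54%. The box read by NF-Y, searched as CCAAT, was found in 51.9%, against 42.3%. The box of SP and KLF factors, searched as GGGCGG, was found in 55.6%, against 49.2%. The TATA box, searched as TATAAA, was rarer, in 9.63% against 14.8%. Where a gene had several promoters, a motif was counted if any of them held it, and the highest CpG count was taken. The median of these counts of CpG dinucleotides was 18 for the matched genes and 15 for all protein-coding genes. The number of promoters per gene was not adjusted for. The protein-coding genes were not filtered by detection, whereas the 169 were, and the part of that filter in these contrasts was not tested. A match is a description of the letters and not of a bound site. The promoters of 4 genes with large differences follow, with matches to the NF-Y, SP/KLF and ETS motifs and to the E-box CACGTG in capitals. Zfp979 (chr4:147642459-147642758, minus strand) and Zfp985 (chr4:147553027-147553326, plus strand) are shown because both were lower in epiSCs than in serum ESCs, Zfp296 (chr7:19577037-19577336, plus strand) because it separated 2i from serum and rESCs from epiSCs, and Zfp36 (chr7:28379179-28379478, minus strand) because it had the largest fall in 2i of all numbered Zfp genes.
Zfp979: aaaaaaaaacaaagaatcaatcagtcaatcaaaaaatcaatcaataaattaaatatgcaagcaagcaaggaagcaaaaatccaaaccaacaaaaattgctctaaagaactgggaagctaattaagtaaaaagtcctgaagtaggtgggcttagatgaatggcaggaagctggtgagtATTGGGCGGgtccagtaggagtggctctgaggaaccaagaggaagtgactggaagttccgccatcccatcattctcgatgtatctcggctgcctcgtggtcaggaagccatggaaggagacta
Zfp985: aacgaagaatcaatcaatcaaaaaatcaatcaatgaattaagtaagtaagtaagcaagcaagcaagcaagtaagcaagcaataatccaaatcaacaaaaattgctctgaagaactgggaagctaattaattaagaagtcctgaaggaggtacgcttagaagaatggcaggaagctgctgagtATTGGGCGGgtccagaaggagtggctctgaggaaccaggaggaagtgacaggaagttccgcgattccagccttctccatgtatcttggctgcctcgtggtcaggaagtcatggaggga
Zfp296: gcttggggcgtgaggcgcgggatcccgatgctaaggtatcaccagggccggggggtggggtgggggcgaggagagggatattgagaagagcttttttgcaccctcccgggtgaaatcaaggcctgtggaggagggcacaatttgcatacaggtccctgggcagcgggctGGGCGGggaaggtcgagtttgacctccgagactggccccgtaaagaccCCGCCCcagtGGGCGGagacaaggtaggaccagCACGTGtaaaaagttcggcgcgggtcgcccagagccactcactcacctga
Zfp36: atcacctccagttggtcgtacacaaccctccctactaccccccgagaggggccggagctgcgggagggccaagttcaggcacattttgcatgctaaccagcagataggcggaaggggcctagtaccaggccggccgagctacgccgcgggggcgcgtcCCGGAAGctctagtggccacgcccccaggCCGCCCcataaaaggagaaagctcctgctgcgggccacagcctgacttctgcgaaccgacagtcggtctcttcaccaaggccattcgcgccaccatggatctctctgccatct
Aligned end to end, the Zfp979 and Zfp985 windows were identical at 256 of 305 aligned positions (83.9%), while Zfp979 and Zfp296 matched at 42.2%. In the Zfp979 and Zfp985 windows, an NF-Y box on the opposite strand and an SP/KLF box overlap in the same stretch ATTGGGCGG, whose first base lies at position -73 in Zfp979 and at position -68 in Zfp985. This stretch, picked after it was seen, occurs in 0.3% of the 27025 genes with a promoter in the table. In Zfp296 the 3 SP/KLF boxes begin at positions -81, -33 and -23. In Zfp36 an ETS motif begins at position -92.

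rESCs were compared with epiSCs to ask which numbered Zfp genes change on reversion. Calls required limma's p, adjusted by Benjamini-Hochberg over all probes detected on enough arrays, to fall under 0.01, and each difference below is the first-named state minus the second on the log2 scale, with its standard error. Of 142 numbered Zfp genes tested, 15 were higher and 26 lower in rESCs, shares of 10.6% and 18.3%. Over all 8168 genes tested the shares were 10.8% higher and 14.4% lower, so the share that rose was close to that of genes at large. The other 27 of the 169 were not detected on enough of these arrays to be tested. The median difference was -0.18 for the numbered Zfp genes and -0.03 for all genes, and it was -0.05 for the numbered Zfp genes on the authors' own normalized values. In 37 of the 41 called genes (90.2%) no rESC value overlapped an epiSC value, against 88.4% of all 2056 called genes.

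**Figure D1:**
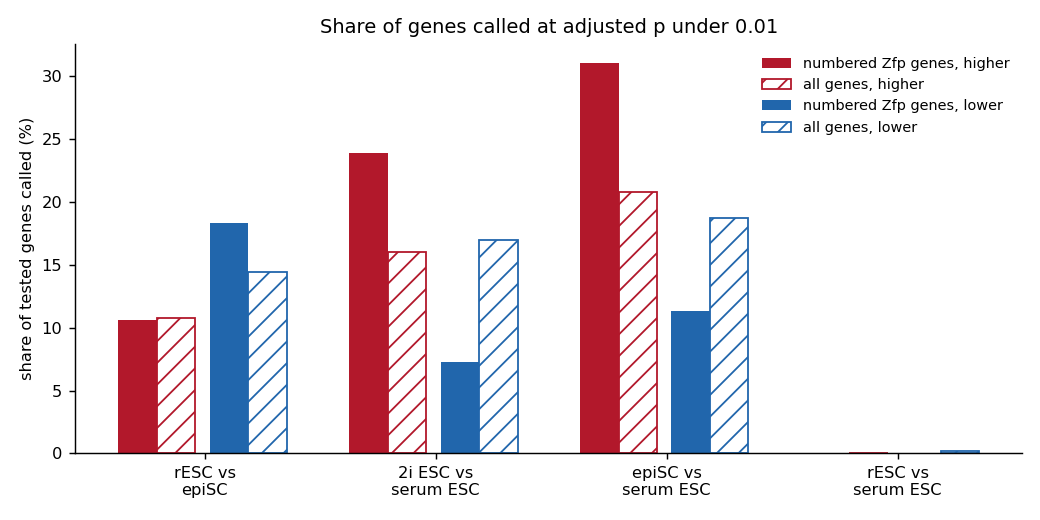
Share of tested genes called at an adjusted p under 0.01 (vertical axis, %), higher in red and lower in blue, for the numbered Zfp genes (filled) and all genes (hatched), in 4 comparisons with the first-named state over the second. In epiSCs over serum ESCs 31% of the Zfp genes were called higher, against 20.8% of all genes, and between rESCs and serum ESCs hardly a gene was called.

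The largest falls were of genes that epiSCs alone held at a high level among the pluripotent states. Zfp362 stood at 6.21, 6.47, 6.48, 6.38 and 6.8 in rESCs BL3, BL7, J2.3, BL2 and BL6, against 9.42, 9.21, 9.83, 9.33 and 8.97 in epiSCs BL3, BL4, BL7, BL2 and BL6. The 2 groups stood far apart, with a difference of -2.86 ± 0.17 (SE, n = 5 each, adjusted p = 9.56e-07). Zfp608 stood at 5.71, 4.92, 5.89, 5.86 and 6.37 in rESCs, against 8.47, 8.42, 8.79, 8.31 and 8.16 in epiSCs, in the same order of lines, a difference of -2.68 ± 0.24 (adjusted p = 1.35e-05). No rESC value reached the lowest epiSC value, and BL7 was the lowest of the rESC lines.

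Zfp521, a regulator of progenitor cells in several lineages, was not well above background on any rESC array. Its values were 4.64, 4.93, 4.6, 4.62 and 4.61 in rESCs, against 7.15, 7.26, 7.31, 6.97 and 6.74 in epiSCs, and it was at least 3.9-fold lower in rESCs (adjusted p = 7.19e-07). This bound sets the epiSC mean against the lowest detected level of each rESC array. Zfp521 passed the detection filter only through the 5 epiSC arrays, where it was high, so its p is not separate from that filter. Zfp334 stood at 5.74, 5.77, 6.14, 6.11 and 6.27 in rESCs, against 7.52, 7.86, 7.92, 7.99 and 7.56 in epiSCs. No rESC value reached the lowest epiSC value, and the difference was -1.77 ± 0.15 (adjusted p = 1.13e-05). Further falls between -1.60 and -1.26 were those of Zfp579, Zfp41, Zfp787, Zfp672, Zfp251 and Zfp943, all with groups that did not overlap, and Zfp672 was detected on 2 of 5 rESC arrays. Zfp521, Zfp362, Zfp608 and Zfp334 were also high in MEFs (8.43, 8.99, 7.9 and 7.44). The summed level of the fibroblast markers was 12.3 to 13.99 on the rESC arrays and 12.1 to 12.43 on the epiSC arrays. Of 17 fibroblast markers tested, 4 were higher in rESCs (Bgn, Lox, Prrx1 and Thy1) and Fstl1 was lower, and their part in these falls was not tested.

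**Figure D2:**
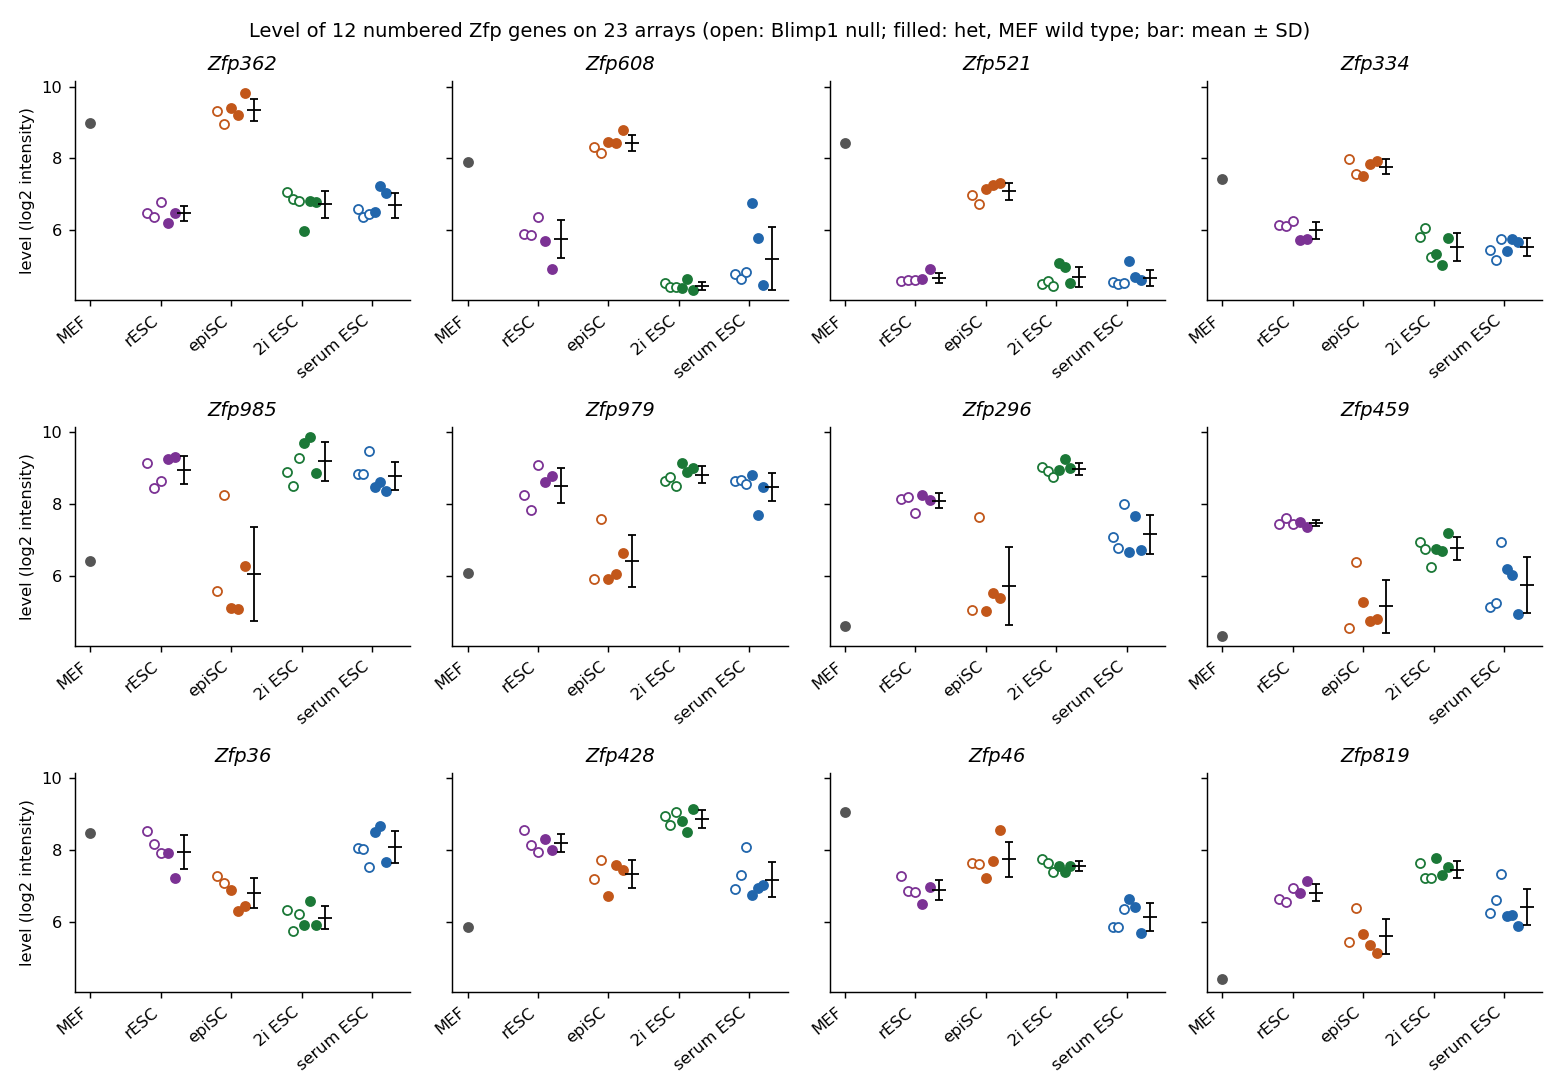
Level (log2 intensity) of 12 numbered Zfp genes on each of the 23 arrays, by state. Points are arrays (open for Blimp1 null, filled for het and, in MEFs, wild type), and the bars give the mean and SD of a state. Zfp362, Zfp608, Zfp521 and Zfp334 are high in epiSCs and MEFs, Zfp985, Zfp979 and Zfp296 have their lowest pluripotent means in epiSCs, where BL6 stands above the other lines, and Zfp36 is lowest in 2i.

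The genes that rose in rESCs included a neighbouring pair on chromosome 4. Zfp985 stood at 9.25, 9.32, 9.15, 8.44 and 8.64 in rESCs BL3, BL7, J2.3, BL2 and BL6, against 5.12, 5.08, 6.29, 5.58 and 8.25 in epiSCs BL3, BL4, BL7, BL2 and BL6. All epiSC values lay below the rESC values, but the BL6 epiSC value was close to the lowest of them, and the difference was 2.88 ± 0.52 (adjusted p = 0.00127). Zfp979 stood at 8.62, 8.78, 8.25, 7.85 and 9.09 in rESCs, against 5.93, 6.05, 6.63, 5.91 and 7.6 in epiSCs, and again BL6 was the highest epiSC value (difference 2.09 ± 0.33, adjusted p = 0.000592). The third gene of the run, Zfp933, was detected on 7 arrays only and was not tested. Without the BL6 epiSC array the differences were 3.45 ± 0.28 for Zfp985 and 2.38 ± 0.25 for Zfp979. With a block for cell line, fitted on the 4 lines that had both states, Zfp985 gave 2.6 (adjusted p = 0.011) and was not called.

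Zfp296, a zinc finger protein of embryonic stem cells that is used to aid reprogramming in mouse, stood at 8.27, 8.13, 8.14, 8.21 and 7.76 in rESCs, against 5.02, 5.53, 5.39, 5.06 and 7.64 in epiSCs. The BL6 epiSC value lay just below the lowest rESC value, which was also of BL6. The difference was 2.39 ± 0.43 (adjusted p = 0.00118), 2.88 ± 0.16 without the BL6 epiSC array, and 2.35 with the cell line block (adjusted p = 0.013), where it was not called. Zfp459 stood at 7.51, 7.38, 7.45, 7.61 and 7.45 in rESCs, against 5.28, 4.76, 4.81, 4.56 and 6.38 in epiSCs. The rESC lines were close to each other, while in epiSCs the gene was detected on 2 of 5 arrays, and the difference was 2.36 ± 0.30 (adjusted p = 0.000139). Further rises were those of Zfp809, Zfp473, Zfp819, Zfp654, Zfp185 and Zfp428, between 0.85 and 1.31, and Zfp185 was detected on 1 of 5 epiSC arrays. Of these Zfp809, Zfp185 and Zfp428 were not called with the cell line block (0.98, 0.95 and 0.82, adjusted p = 0.037, 0.011 and 0.028). Leaving out 1 array ended the call of Zfp809 for 5 of the 10 arrays (adjusted p up to 0.019) and that of Zfp428 for 5 (up to 0.015).

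For 14 of the called genes the chip held 15 further tested probes, of which 13 moved in the same direction as the brightest probe and 8 were called in that direction, with 0 called in the opposite one. Those of Zfp410 (0.01, adjusted p = 0.97) and Zfp428 (-0.05, adjusted p = 0.85) had the opposite sign. Without the BL6 epiSC array 44 numbered Zfp genes were called (17 higher, 27 lower), 39 of them among the 41.

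epiSCs were compared with ESCs in serum, 2 states that had not passed through reversion. Of 142 numbered Zfp genes tested, 44 were higher in epiSCs (31%) and 16 lower (11.3%). Over all 8402 genes the shares were 20.8% higher and 18.7% lower, so the Zfp genes were called higher more often and lower less often than the genes at large, a description that was not tested. The median difference was 0.16, against 0.03 for all genes, and 0.06 on the authors' normalized values. In 49 of the 60 called genes (81.7%) the groups did not overlap, against 76.9% of all 3314 called genes. This comparison shares its epiSC arrays with the one before, so the 2 sets of values are not independent.

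Zfp608 had the largest rise, with 8.47, 8.42, 8.79, 8.31 and 8.16 in epiSCs, against a lowest value of 4.48, a median of 4.8 and a highest of 6.77 in serum ESCs. The serum lines PAN1 and PUM3 were detected and the other 4 were not, and the difference was 3.16 ± 0.35 (adjusted p = 1.6e-05). Zfp362 (2.62 ± 0.19), Zfp521 (2.36 ± 0.14), Zfp41 (2.25 ± 0.29), Zfp334 (2.19 ± 0.14) and Zfp787 (2.06 ± 0.26) followed. Of these 5 genes Zfp521 was detected on 1 of 6 serum arrays and the others on all 6. The differences of Zfp608 and Zfp521 are thus set mostly against serum values at background. Zfp41 stood at 8.7, 8.92, 9.17, 8.69 and 8.81 in epiSCs, against 5.77, 6.59 and 7.34 as lowest, median and highest value in serum. Each epiSC line was above each serum line for these 6 genes. Of 19 fibroblast markers tested, 4 were higher in epiSCs (Dcn, Fstl1, Lum and Timp3) and 9 lower, and their part in these rises was not tested. Zfp251, Zfp763, Zfp523 and Zfp943 rose by 1.72 to 1.84, also without overlap.

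By brightest probe, the deepest falls in epiSCs were again Zfp985 (-2.67 ± 0.47, adjusted p = 0.000463) and Zfp979 (-2.03 ± 0.29, adjusted p = 0.000115). They were -3.21 ± 0.26 and -2.32 ± 0.22 without the BL6 epiSC array. Zfp655, Zfp809, Zfp28 and Zfp36 fell by 1.54, 1.52, 1.44 and 1.27. Zfp568, a KRAB protein that represses a placental Igf2 transcript in the mouse embryo, was detected on 0 of 5 epiSC arrays and 5 of 6 serum arrays, and was at least 1.54-fold lower in epiSCs (adjusted p = 0.000452). It passed the detection filter only through those 5 serum arrays, and with any 1 of them left out it was not tested. Its values were 4.35, 4.41, 4.42, 4.5 and 4.52 in epiSCs, against 4.78, 5.75 and 6.33 as lowest, median and highest in serum. Zfp185, Zfp365 and Zfp654 fell by 1.08 to 1.22. Zfp296 was lower in epiSCs by 1.40 ± 0.42 but not called (adjusted p = 0.0143), and without the BL6 array it was called (-1.87 ± 0.26, adjusted p = 9.5e-05). Zfp819 behaved likewise, with -0.79 ± 0.26 over all arrays (adjusted p = 0.022) and -0.99 ± 0.24 without BL6 (adjusted p = 0.0041). All 22 further probes of called genes had the sign of the brightest probe, and 11 of them were called. Sizes could differ widely between probes of a gene. A further probe of Zfp330 gave -4.83 (adjusted p = 7.5e-09), against -0.51 for its brightest probe (adjusted p = 0.0054), and the cause was not tested.

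**Figure D3:**
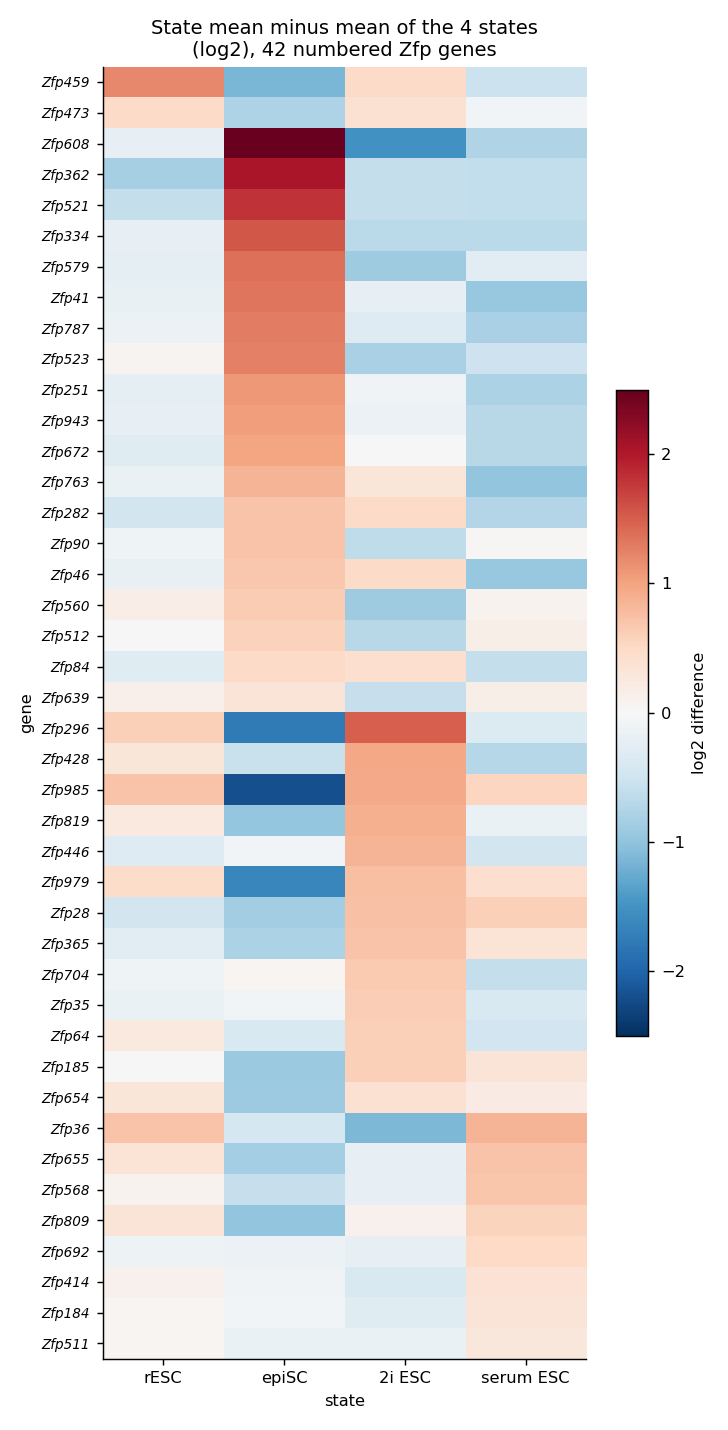
Mean level of each state minus the mean of the 4 states (colour, log2 difference) for the 42 numbered Zfp genes with the largest called differences between states, 1 row per gene, ordered by the state with the highest mean. Of the 42, 2 were highest in rESCs, 19 in epiSCs, 13 in 2i and 8 in serum, and the genes were chosen by these same differences.

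2i and serum were compared in the same 6 ESC lines. Of 138 numbered Zfp genes tested, 33 were higher in 2i (23.9%) and 10 lower (7.25%), where the shares over all 7996 genes were 16.0% higher and 17.0% lower. The rises thus outnumbered the falls among the Zfp genes, while both were about as frequent among genes at large, and this contrast was not tested. The median difference was 0.23, against 0.02 for all genes, and 0.10 on the authors' normalized values. In 32 of the 43 called genes (74.4%) the groups did not overlap, against 69% of all 2635 called genes. With cell line as a block 51 were called, 40 higher and 11 lower.

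Zfp296 led the rises, with a lowest value of 8.75, a median of 8.98 and a highest of 9.27 in 2i, against 6.67, 6.94 and 8.01 in serum. The highest serum value was that of B12, and each line was higher in 2i, by 1.86 ± 0.21 on average (adjusted p = 1.79e-05). Zfp428 stood at 8.49, 8.88 and 9.14 in 2i, against 6.75, 6.99 and 8.09 in serum, where B12 again was the highest value (1.71 ± 0.20, adjusted p = 2.34e-05). Zfp46 stood at 7.38, 7.56 and 7.75 in 2i, against 5.7, 6.1 and 6.63 in serum (1.41 ± 0.16, adjusted p = 1.55e-05). Zfp46 stood at 9.06 in MEFs, and the fibroblast markers summed to 10.6 to 11.04 in 2i and 12.7 to 13.35 in serum, whose part in this rise was not tested. Zfp446, Zfp763, Zfp704, Zfp282, Zfp64 and Zfp35 rose by 1.01 to 1.27 and Zfp84 by 0.97, all without overlap between media. In serum Zfp704 was detected on 1 of 6 arrays, Zfp84 on 2, and Zfp446 and Zfp763 on 4, so that these differences are set in part against values at background.

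Zfp36 (tristetraprolin), which binds AU-rich elements of messenger RNAs and promotes their decay, had by far the largest fall. Its level was 5.75, 6.07 and 6.58 in 2i as lowest, median and highest value, against 7.53, 8.05 and 8.66 in serum. All 6 lines were lower in 2i than any line in serum, with a difference of -1.97 ± 0.21 (adjusted p = 7.73e-06). Zfp36 was also bright in MEFs (8.47), and 15 of 16 fibroblast markers tested fell in 2i, whose part in the fall of Zfp36 was not tested. Zfp560 was detected on 0 of 6 arrays in 2i and 6 of 6 in serum and was at least 1.54-fold lower in 2i. It passed the detection filter only through those 6 serum arrays, where it was high. Zfp512, Zfp639, Zfp414, Zfp692, Zfp90, Zfp184 and Zfp511 fell by 0.84 to 0.45. Of 18 further probes of called genes 16 had the same sign and 12 were called, with 0 opposite.

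rESCs and ESCs in serum share their medium and differ in origin. Of 135 numbered Zfp genes tested by limma none was called in either direction, where 0.0368% of 8148 genes were called higher and 0.160% lower. At an unadjusted p under 0.05 there were 36 (26.7%), against 27% of all genes. By brightest probe, the largest difference was that of Zfp459. It stood at 7.51, 7.38, 7.45, 7.61 and 7.45 in rESCs, against a lowest value of 4.95, a median of 5.64 and a highest of 6.96 in serum. The groups did not overlap, but the difference of 1.74 ± 0.32 did not pass (adjusted p = 0.0242). Zfp532 (1.52 ± 0.31, adjusted p = 0.0293), Zfp428 (1.02 ± 0.22, adjusted p = 0.0325), Zfp213 (0.97 ± 0.20, adjusted p = 0.0293) and Zfp28 (-1.05 ± 0.26, adjusted p = 0.0428) came next. Zfp532 has a role as a partner of the chromatin reader Zmynd8. A further probe of Zfp330 gave -4.03 (adjusted p = 0.029), against -0.02 for its brightest probe (adjusted p = 0.94), and did not pass. The B12 serum array was the highest of its state for Zfp459, Zfp428 and Zfp296, and without it Zfp459 (1.99 ± 0.24), Zfp428 (1.21 ± 0.15), Zfp296 (1.12 ± 0.19) and Zfp692 (-0.74 ± 0.14) were called. Without the PUM3 serum array Zfp213 alone was called (1.13 ± 0.15). In 1 fit over all 22 pluripotent arrays 8 were called, among them Zfp459, Zfp532, Zfp213, Zfp428 and Zfp28.

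**Figure D4:**
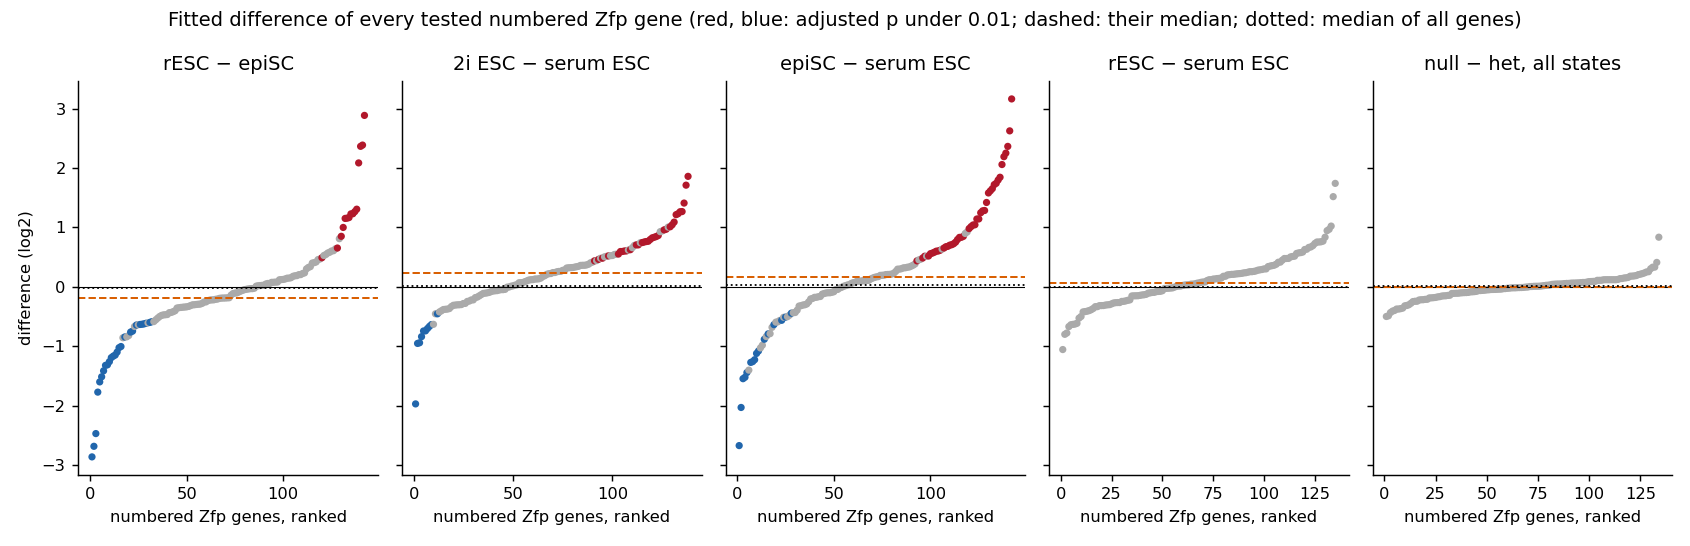
Fitted difference (log2, vertical axis) of every tested numbered Zfp gene, ranked along the horizontal axis, in 5 comparisons. Red and blue points were called at an adjusted p under 0.01, the dashed line is the median of the Zfp genes and the dotted line that of all genes. No point is coloured between rESCs and serum ESCs or between null and het.

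Across the 4 states the means of a gene spanned 0.77 (median of 169 genes, from 0.05 to 3.98), close to the 0.74 of all genes. A span under 0.5 was found in 45 genes (26.6%, against 28.7% of all genes), and one over 2 in 12, against 836 of all 9226 genes. By mean level, 64 genes were highest in epiSCs (37.9%, against 33.4% of all genes), 62 in 2i (36.7%, against 28.1%), 17 in rESCs (10.1%, against 16.1%) and 26 in serum (15.4%, against 22.4%). The lowest state was serum for 61 genes (36.1%, against 24% of all genes), epiSCs for 49 (29%, against 31.8%), 2i for 37 (21.9%, against 30.1%) and rESCs for 22 (13%, against 14.2%). These counts include genes whose states do not differ beyond their spread. Genes of a run did not always move together. In the run on chromosome 7 around Zfp568, epiSCs were higher than serum ESCs for 2 genes (Zfp84 and Zfp30) and lower for 2 (Zfp568 and Zfp82) of 5 tested. A further probe of Zfp30 gave 0.02 there (adjusted p = 0.91), and Zfp84 was not called without the filter on dim probes. In the run on chromosome 13, Zfp459 was the only called gene of 4 tested between rESCs and epiSCs. On chromosome 6 (chr6:47877209-48086986), Zfp282, Zfp212 and Zfp777 were called higher in both 2i and epiSCs over serum ESCs, out of 5 tested, with medians of 0.46 and 0.52. A further probe of Zfp212 gave 0.16 in 2i (adjusted p = 0.35) and 0.25 in epiSCs (adjusted p = 0.22). Over all genes, 16.0% were called higher in 2i than in serum. In epiSCs over serum 20.8% were higher and 18.7% lower, and in rESCs over epiSCs 10.8% were higher and 14.4% lower.

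Members with known roles were then followed by role, in lists that leave out genes not analysed here. Of genes linked to pluripotency, Zfp296, Zfp281 and Zfp207 were measured, and Zfp296 alone was called in rESCs against epiSCs. Zfp207, a kinetochore and splicing protein, rose in 2i by 0.61 ± 0.12 (adjusted p = 0.000916). A further probe of Zfp207 did not rise in 2i (-0.2, adjusted p = 0.23), and the mean of its probes was not called. Zfp281, a repressor of Nanog in mouse ESCs, was between 7.3 and 8.38 on every pluripotent array and was called in no comparison of states, with differences of -0.22 ± 0.16 in rESCs against epiSCs and -0.10 ± 0.16 in 2i against serum.

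Of 5 measured genes that silence retroelements or imprints, 2 of 4 tested rose in rESCs against epiSCs, Zfp809 and Zfp819, where 10.8% of all genes rose. Zfp809, which recognises the primer binding site of murine leukaemia virus and recruits Trim28, stood at 6.71, 7.92, 8.38, 6.88 and 7.03 in rESCs, against 6.26, 5.71, 5.8, 6.09 and 6.53 in epiSCs. The rESC lines BL7 and J2.3 were well above the other 3, and the difference was 1.31 ± 0.31 (adjusted p = 0.00641). This call was lost in 10 of 19 alternative settings, among them the authors' values, no background correction and no filter on dim probes. Zfp819, a KRAB protein linked to retroelement silencing in mouse ESCs, stood at 6.8, 7.13, 6.65, 6.54 and 6.95 in rESCs, against 5.65, 5.36, 5.14, 5.44 and 6.4 in epiSCs (1.23 ± 0.22, adjusted p = 0.00129). It also rose in 2i by 1.04 ± 0.21, with the groups overlapping at the B12 serum array (7.32). Zfp638, a partner in the silencing of unintegrated retroviral DNA, and Zfp445, an imprint regulator, were called in none of the comparisons of states that tested them.

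The partners through which KRAB proteins act are not numbered Zfp genes and are given for context. In rESCs against epiSCs, where 10.8% of all genes were higher, 4 of 12 tested were, Trim28 (0.77 ± 0.16), Setdb1 (0.51 ± 0.12), Morc3 (0.85 ± 0.15) and Smarcad1 (0.74 ± 0.15), and Chd3 was lower (-0.77 ± 0.11). In 2i against serum, where 16.0% of all genes were higher and 17.0% lower, 4 of 11 were higher, Trim28 (0.49 ± 0.12), Cbx3, Hdac2 and Dnmt1, and none was lower. In epiSCs against serum, where 20.8% of all genes were higher and 18.7% lower, Cbx3 and Chd3 were higher and Atf7ip and Morc3 lower, of 12 tested. Between rESCs and serum ESCs none of 11 was called.

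Among genes of RNA and ribosomes, Zfp36 was called in all 3 comparisons above with calls, and rose by 1.15 ± 0.25 in rESCs against epiSCs with groups that overlapped (adjusted p = 0.00404, and up to 0.012 with 1 array left out). Zfp106, an RNA-binding protein needed by mouse motor neurons, fell in epiSCs against serum by 0.88 ± 0.16. Zfp326, a splicing factor, rose there by 0.83 ± 0.23 (adjusted p = 0.00773), and this call was lost when any 1 of 8 of the 11 arrays was left out (adjusted p up to 0.024). Zfp346, Zfp598, which marks collided ribosomes, and Zfp622 were called in none of the 4 comparisons. Zfp593 was not detected on enough arrays to be tested there. Among cofactors of chromatin, ubiquitin and SUMO, Zfp410, an activator of Chd4, was lower in rESCs than in epiSCs (-0.61 ± 0.13) and higher than in serum ESCs both in 2i (0.84 ± 0.10) and in epiSCs (0.80 ± 0.12). Its level was 6.65, 6.8 and 7.05 in 2i and 5.89, 5.98 and 6.1 in serum as lowest, median and highest, with no overlap. A further probe of Zfp410 gave 0.01 in rESCs against epiSCs (adjusted p = 0.97) and 0.13 in epiSCs against serum (adjusted p = 0.5). Another gave 0.36 in epiSCs against serum (adjusted p = 0.061) and 0.52 in 2i against serum (adjusted p = 0.0095). Zfp644, a partner of the histone methyltransferase Ehmt2, was higher in epiSCs by 1.28 ± 0.19 than in serum ESCs, and lower in rESCs than in epiSCs by -0.60 ± 0.14. Zfp592 rose in 2i (0.60 ± 0.13) and the ubiquitin ligase Zfp91 fell in epiSCs against serum (-0.56 ± 0.14, adjusted p = 0.00553, and up to 0.018 with 1 array left out). Zfp277, Zfp451 and Zfp532 were not called in any of the 4. With the cell line block the falls of Zfp410 and Zfp644 in rESCs gave -0.59 and -0.51 and were not called (adjusted p = 0.019 and 0.051), and leaving out 1 array took their adjusted p up to 0.012 and 0.016.

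Of developmental regulators, Zfp521 and Zfp423, a cofactor of SMAD proteins and of adipocyte fate, were higher in epiSCs than in serum ESCs. Zfp423 stood at 6.11, 5.71, 5.7, 5.52 and 5.68 in epiSCs, against 4.64, 5.03 and 5.31 as lowest, median and highest in serum (0.70 ± 0.15, adjusted p = 0.00168). It was detected on 2 of 6 serum arrays, so this difference is set mostly against values at background. In MEFs Zfp423 was not detected (4.36). Zfp148, a GC-box binding protein, rose in 2i by 0.76 ± 0.10, its 2i values of 6.5 to 6.87 standing clear of 5.68 to 6.04 in serum. A further probe of Zfp148 did not rise in 2i (-0.13, adjusted p = 0.37). Zfp516, a regulator of brown fat, was higher in rESCs than in epiSCs (0.65 ± 0.16) and was detected on 2 of 5 epiSC arrays, and this call was lost with 15 of 19 alternative settings, the cell line block among them (0.62, adjusted p = 0.049). Zfp703, a regulator known from breast epithelium, was detected on 7 arrays, was tested among the comparisons of states only between rESCs and epiSCs, and was not called (-0.25 ± 0.27).

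Null lines were compared with het lines to ask whether loss of Blimp1 altered these genes. By limma none of the numbered Zfp genes was called in any state. In rESCs 0 of 145 were called (0% of 8372 genes), in epiSCs 0 of 152 (0.326% of 8595 genes), in 2i 0 of 145 (0% of 7950 genes) and in serum 0 of 131 (0% of 8133 genes). At an unadjusted p under 0.05 there were 3 in rESCs, 18 in epiSCs, 4 in 2i and 9 in serum, or 2.07%, 11.8%, 2.76% and 6.87%, where all genes gave 4.12%, 14%, 5.45% and 4.66%. The smallest adjusted p was that of Zfp326 in epiSCs, with 7.04 and 7 in null lines BL2 and BL6, against 7.95, 7.83 and 7.93 in het lines BL3, BL4 and BL7. The 2 genotypes did not overlap, and the difference of -0.87 ± 0.15 did not pass (adjusted p = 0.0275). Zfp97 (-0.90 ± 0.16) and Zfp346 (-0.87 ± 0.17) were similar in epiSCs (adjusted p = 0.0286 and 0.0387).

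Over all states, with line as a random block, 0 of 134 were called (0% of 7935 genes) and 11 had an unadjusted p under 0.05 (8.21%, against 6.97% of all genes). The smallest p-values were those of Zfp661 (-0.40 ± 0.13), Zfp266 (-0.28 ± 0.10) and Zfp185 (0.33 ± 0.13), each with an adjusted p of 0.64. Whether genotype changed the response to medium or the reversion was tested by interaction terms. These were fitted without a block for cell line, so arrays of the same line were treated as independent. None of 138 was called for medium (0% of 7996 genes) and none of 142 for reversion (0% of 8168 genes), with 6 and 5 at an unadjusted p under 0.05, or 4.35% and 3.52%, against 3.56% and 2.11% of all genes. The widest interaction for medium was that of Zfp985 (-1.18), whose 2i values were 8.9, 8.5 and 9.29 in null lines and 9.72, 9.88 and 8.87 in het lines, where its serum values were 8.85, 8.85 and 9.49 in null lines and 8.49, 8.62 and 8.38 in het lines. For reversion the widest interaction was also that of Zfp985 (-1.96 ± 0.92, adjusted p = 0.998). The null epiSCs in that term and in the epiSC comparison were BL2 and BL6 alone, and BL6 stood apart in its naive markers. A miss of the threshold with 2 or 3 lines per genotype does not show that the genotypes act alike.

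MEFs were set against the 22 pluripotent arrays without a test, since 1 array has no spread. A gene was counted if its MEF level lay outside the range of the 22 arrays and 2-fold or more from their mean. By this rule 14 numbered Zfp genes were higher in MEFs (8.28%, against 12.7% of 9226 genes), 20 were lower (11.8%, against 12.8%) and 135 neither. Far fewer genes met the rule on the authors' values or without background correction, as given in the closing section. Zfp521 was the farthest above, at 8.43 in MEFs against 4.44 to 7.31 on pluripotent arrays. Zfp703, at 7.12 against 4.34 to 5.85, Zfp46, at 9.06 against 5.7 to 8.55, Zfp672 and Zfp637 were 1.82 to 2.27 above the pluripotent mean, and Zfp608 was 2.04 above it but within the range, as its epiSC values are higher. The farthest below were Zfp296 and Zfp97, neither well above background in MEFs and at least 4.99-fold and 4.55-fold lower there than the pluripotent mean. Zfp710 stood at 6.13 in MEFs, against 7.78 to 9.54 on pluripotent arrays, and Zfp428 at 5.87 against 6.73 to 9.14. Zfp819 was not well above background in MEFs, at least 2.58-fold below the mean, and Zfp979 stood at 6.09 in MEFs, against a pluripotent mean of 8.12, but within the pluripotent range.

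**Figure D5:**
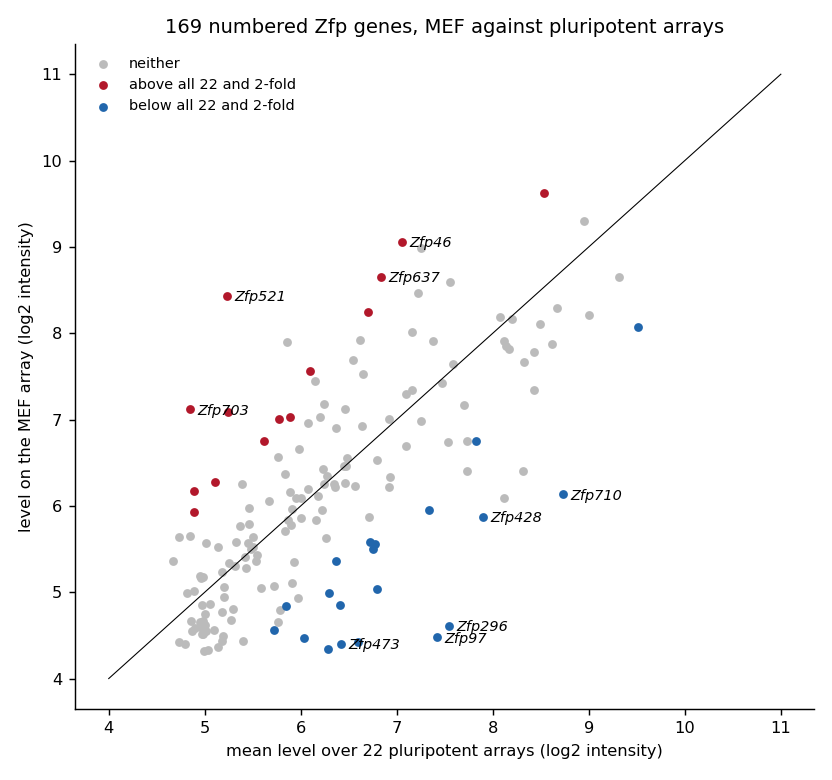
Level of the 169 numbered Zfp genes on the MEF array (vertical axis, log2 intensity) against their mean over 22 pluripotent arrays (horizontal axis, log2 intensity), with the line of equal level. Red points (14) lie above and blue points (20) below all 22 arrays and 2-fold or more from their mean, and some of the farthest are named, with Zfp521 highest above the line and Zfp296 and Zfp97 farthest below it.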

How the data were processed

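The members, gene lists and tests were chosen with earlier results of these data known. Total RNA (RNeasy) was labelled as biotin cRNA and hybridised to Illumina Mouse WG-6 v2.0 BeadChips. The authors deposited signal intensities per probe, not background-subtracted, each with a detection p-value, and a separate table of log2 values, for which the authors used lumi to stabilize the variance and then equalized the quantiles. The deposited intensity columns of 1 further epiSC library (J2.3, signal and detection p) matched no sample, and these 2 columns were not used. Intensities were background-corrected and quantile-normalized by neqc (offset 16) within the arrays of each comparison, or over all 23 arrays for levels, so that levels and fitted differences are on separate scales. Only probes below a detection p of 0.01 on enough arrays, no fewer than the smaller group holds, entered the tests. Tests used limma 3.58.1 (statmod 1.5.0, R 4.3.3), with p adjusted by Benjamini-Hochberg over all tested probes and a threshold of 0.01. A gene is read from its brightest probe. The script was tested on simulated data.

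Genes named are, for each comparison of states, the 10 genes that rose most and the 10 that fell most among those called with no overlap of groups, the 3 smallest p-values between genotypes, the 6 genes farthest above and below the pluripotent mean in MEFs, detected members of 5 role lists, and the 5 highest and 5 lowest mean levels. A few others were picked after their values were seen (genes called only in an alternative, genes of a run, and the smallest p-values between rESCs and serum ESCs and within epiSCs). A planned grouping by KRAB domain was not made. "At least N-fold" sets the mean of the bright group against the mean, over the dim arrays, of the higher of the lowest detected signal and the probe's own signal. Replicates are cell lines with 1 array each, so p-values measure the spread between lines; their number limits the precision. Arrays of a line share that line, which pairs 2i with serum in 6 lines and rESCs with epiSCs in 4. The deviations of the paired arrays correlated at 0.12 to 0.52 except in BL6 (-0.18). Alternatives were the authors' log2 values, no background correction, no filter on dim probes, the mean of a gene's probes, all 22 pluripotent arrays in 1 fit, genotype as a covariate, cell line as a block and leaving out each array.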

Additional observations from a re-analysis of the deposited data

Results flagged for a closer look

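The check covered 64 groups of 5 or 6 arrays, for a chosen set of numbered Zfp genes and for the median level of all 169. In 6 of the groups 1 array stood apart from the rest of its state, where chance flags about 1 in 20 groups. Zfp296 was 7.64 in the BL6 epiSC array, against 5.02 to 5.53 in the other epiSC lines, and 7.76 in the BL6 rESC array, against 8.13 to 8.27 in the other rESC lines. Zfp521 was 4.93 in the BL7 rESC array, against 4.6 to 4.64, and 5.13 in PAN1 in serum, against 4.51 to 4.69, values at the edge of detection. Zfp979 was 7.7 in PUM3 in serum, against 8.48 to 8.81 in the other serum lines. Zfp362 was 5.99 in PAN1 in 2i, against 6.79 to 7.08 in the other 2i lines.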

How the results depend on the processing

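Among the named genes that were called (33 for rESCs against epiSCs, 25 for 2i against serum and 40 for epiSCs against serum), no difference changed direction under an alternative in which the gene was tested, and named genes that were not called were not rerun. With cell line as a replicate block, which pairs the arrays of a line, 29 numbered Zfp genes were called between rESCs and epiSCs (8 higher, 21 lower, 4 lines), against 33 in the same 4 lines without the block, and 51 between 2i and serum. The block also ended the calls of Zfp523 and Zfp330 between rESCs and epiSCs (adjusted p = 0.024 and 0.036). Leaving out 1 array gave 31 to 44 calls for rESCs against epiSCs, 39 to 50 for 2i against serum, 47 to 60 for epiSCs against serum and 0 to 4 for rESCs against serum, and 0 for every comparison of genotypes. Between rESCs and serum ESCs 8 were called with all 22 arrays in 1 fit, 1 (Zfp213) without PUM3 in serum, 4 without B12 in serum, and 5 without both J2.3 rESC and B12 in serum, an alternative chosen after seeing the data. By the rule used for MEFs, 8 genes were counted on the authors' values and 11 without background correction, against 34. Both settings compress low values by their construction, and the part of this in the lower counts was not tested. Of the named genes called, 19 of 33 (rESCs against epiSCs), 23 of 25 (2i against serum) and 30 of 40 (epiSCs against serum) stayed called in every setting. Calls lost when 1 array was left out were those of Zfp809, Zfp428, Zfp36, Zfp655, Zfp637, Zfp410, Zfp644, Zfp516 and Zfp330 between rESCs and epiSCs, and of Zfp704, Zfp512, Zfp692, Zfp511, Zfp266, Zfp326, Zfp91 and Zfp330 between epiSCs and serum, and the cause was not tested. Many numbered Zfp genes lie near background, where a log2 difference understates the change.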
